A study of Homo sapiens with 8 samples.

Results

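U2OS, a human osteosarcoma cell line with wild-type p53, carried 1400 genomic regions at which p53 peaks were listed after DMSO, after doxorubicin and after Nutlin-3, with no peak in untreated cells. They were 7.04% of the 19877 regions obtained by merging the 4 deposited peak lists, with overlapping and adjoining peaks joined. The members were chosen by these lists themselves, by the presence of at least 1 peak of each of 3 lists and the absence of an untreated one. Their number and their makeup by list are therefore a description with no test. The cells had received 0.1% DMSO, 0.6 µg/ml doxorubicin, 10 µM Nutlin-3 or nothing, with 24 h given for each condition. The labels pair DMSO with Nutlin-3 and no treatment with doxorubicin as controls, and each condition had 1 ChIP library, made with the p53 antibody DO-1, and 1 input. All libraries came from this 1 cell line, and the labels give no replicate. The depth of the libraries is unknown, so a list's length and widths describe its library and the calling as well as binding. A peak is given by its chromosome, start and end alone, on a grid of 20 bp in build hg18, and has no height or score.

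p53 is a transcription factor that binds DNA as a tetramer, at paired copies of a short degenerate motif. It is held at a low level in unstressed cells by the ubiquitin ligase MDM2, itself a p53 target, which marks p53 for degradation. Doxorubicin poisons topoisomerase II and breaks DNA, and the damage kinases it sets off free p53 from MDM2. Nutlin-3 occupies the p53 pocket of MDM2 and stabilises p53 with no need for DNA damage, and DMSO is its solvent. The shared regions are sites listed both with the solvent alone and with each activating agent. Regions are named by position in hg18, and their sequence and the genes near them were not analysed here.

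The shared regions held about as many peaks of each of the 3 lists, which was a larger part of the DMSO list than of the doxorubicin list and a small part of the Nutlin-3 list. They held 1406 of the 2793 DMSO peaks (50.3%, exact 95% binomial interval 48.5 to 52.2), 1404 of the 3087 doxorubicin peaks (45.5%, 43.7 to 47.3) and 1418 of the 18159 Nutlin-3 peaks (7.81%, 7.42 to 8.21). Such intervals cover counting error only and treat peaks or regions as independent. By length the shared regions took 47.6% of the DMSO list, 29.1% of the doxorubicin list and 6.91% of the Nutlin-3 list. The doxorubicin list thus had a smaller share of its length than of its peaks in them. Of the 100 widest doxorubicin peaks 0 lay in a shared region, against 41 of the 100 widest DMSO peaks and 18 of the 100 widest Nutlin-3 peaks. The rule leaves out regions with an untreated peak, and wide doxorubicin peaks stood there. Doxorubicin peaks reached 3340 bp in the list but 1740 bp in regions without an untreated peak. Part of these doxorubicin values is therefore set by the rule.

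A site listed with both DMSO and doxorubicin was nearly always listed with Nutlin-3 too. Of the 1417 regions that held DMSO and doxorubicin peaks and no untreated peak, 1400 (98.8%, 98.1 to 99.3) also held a Nutlin-3 peak. The remaining 17 lay close to one in most cases, since 15 had a Nutlin-3 peak within 200 bp of their bounds. The other pairs of lists were completed less fully. Doxorubicin was present in 1400 of the 2175 regions with DMSO and Nutlin-3 (64.4%, 62.3 to 66.4), and DMSO in 1400 of the 2194 regions with doxorubicin and Nutlin-3 (63.8%, 61.8 to 65.8). DMSO and doxorubicin peaks that do not touch enter the 1417 only where a Nutlin-3 peak joins them, so part of the 98.8% is set by the merging. The Nutlin-3 list is the longest, and the part that its length has in these shares was not tested.

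Some regions stood just outside the rule. Of the 775 regions with DMSO and Nutlin-3 alone, 33 had a doxorubicin peak within 100 bp, and of the 794 with doxorubicin and Nutlin-3 alone, 22 had a DMSO peak within 100 bp. A further 6 regions held peaks of all 4 lists and failed on the untreated peak alone. One of them, on chromosome 3 from 199384691 to 199384731, was a peak of 40 bp with the same bounds in every list. Another, on chromosome 1 from 154452851 to 154453211, had a DMSO peak of 40 bp, a doxorubicin peak of 320 bp, a Nutlin-3 peak of 40 bp and an untreated peak of 280 bp. Just inside the rule were 344 members (24.6%, 22.3 to 26.9) in which the 3 lists had no stretch in common and were joined by overlaps in steps or by adjoining ends.

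Untreated peaks were rare near members, as they were near any region. An untreated peak lay within 1000 bp of 4 members (0.286%, 0.0779 to 0.730), against 1.30% of all merged regions, within 10000 bp of 9 and within 100000 bp of 44 (3.14%, 2.29 to 4.20). The 1.30% includes regions that hold an untreated peak themselves. Within 1000 bp it was 0.516% with DMSO and Nutlin-3 alone, 0.756% with doxorubicin and Nutlin-3 alone and 0.549% with Nutlin-3 alone. For 10000 and 100000 bp other regions were not counted. The nearest was on chromosome 18, where the member from 3295471 to 3295531 had peaks of 60 bp with DMSO, 60 bp with doxorubicin and 40 bp with Nutlin-3, and an untreated peak of 60 bp began 40 bp to its right. The next were 260 bp away, for the member on chromosome 8 from 128877151 to 128877231, and 420 bp away, for the member on chromosome 16 from 33872371 to 33872551. The untreated list has 15 dense stretches, runs of at least 5 peaks with gaps of at most 20 kb. Inside these stretches lay 1 member. No member can hold an untreated peak, so a low count there is partly set by the rule. The share of all merged regions inside them was not counted.

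Most shared regions were simple. In 1376 of the 1400 there was exactly 1 peak of each list, 20 regions held 4 peaks and 4 held 5. Of the 24 with more than 3 peaks, 18 had a pair of Nutlin-3 peaks, 6 a pair of DMSO peaks and 4 a pair of doxorubicin peaks. The 4 regions with 5 peaks were built as follows. On chromosome 17 from 57575811 to 57576371 a doxorubicin peak of 460 bp, the widest doxorubicin peak of all members, overlapped a pair of DMSO peaks of 180 bp each and a pair of Nutlin-3 peaks of 160 and 120 bp. On chromosome 5 from 7720331 to 7720691 a doxorubicin peak of 340 bp spanned DMSO peaks of 40 and 40 bp and overlapped Nutlin-3 peaks of 100 and 40 bp. On chromosome 2 from 133017011 to 133017471 a doxorubicin peak of 380 bp overlapped DMSO peaks of 40 and 40 bp, adjoined a Nutlin-3 peak of 60 bp and overlapped another of 40 bp. The fourth, on chromosome 15 from 22655111 to 22655731, had a doxorubicin peak of 40 bp inside a DMSO peak of 200 bp, and a Nutlin-3 peak of 420 bp that overlapped this DMSO peak and another of 40 bp; a Nutlin-3 peak of 40 bp lay at the left end.

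Peaks in the shared regions were narrow in every list. The median width was 40 bp, the smallest width in the files, for the DMSO, the doxorubicin and the Nutlin-3 peaks of the members, against 60 bp in each whole list. Widths ran from 40 to 620 bp for DMSO, from 40 to 460 bp for doxorubicin and from 40 to 760 bp for Nutlin-3. Of the Nutlin-3 peaks in members 61.8% (59.2 to 64.3) were 40 bp wide, against 34.6% of the whole list and 31.1% of the peaks in regions with Nutlin-3 alone. For DMSO the share of 40 bp peaks was 53.8% (51.1 to 56.4) in members and 47.5% in the list, and for doxorubicin 51.7% (49.1 to 54.4) and 43.5%. Peaks of 300 bp or more made up 1.07% of the doxorubicin peaks in members and 6.58% of the doxorubicin list, while for Nutlin-3 they made up 3.6% and 2.60%. The whole doxorubicin list includes wide peaks in regions with an untreated peak, which the rule leaves out. In the regions with only a pair of these lists, 40 bp peaks were 42.7% of the Nutlin-3 peaks shared with doxorubicin alone and 44.3% of those shared with DMSO alone. They were 36.5% of the DMSO peaks and 35.1% of the doxorubicin peaks shared with Nutlin-3 alone. In the 17 regions with DMSO and doxorubicin alone they were 64.7% of the DMSO and 35.3% of the doxorubicin peaks. Members are a large part of the DMSO and doxorubicin lists, so whole lists are unlike backgrounds. Width and presence come from the same lists, so none of these differences was tested. The peaks of 40 bp decide how many members there are: with all of them left out, 157 regions met the rule.

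**Figure D1:**
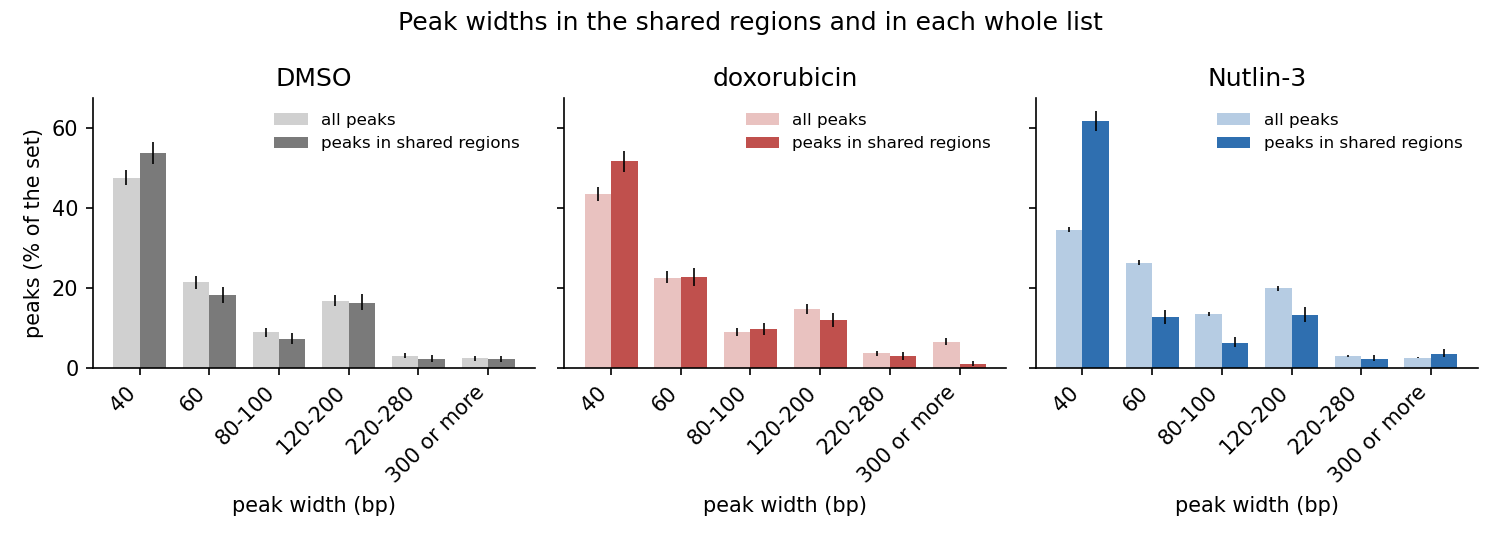
Share of peaks (y axis, percent of the set) by peak width (x axis, bp) for the DMSO, doxorubicin and Nutlin-3 lists, with pale bars for all peaks of a list, dark bars for its peaks in the shared regions and exact 95% binomial intervals as error bars. The dark bar at 40 bp is the highest in each panel, and in the Nutlin-3 panel it stands at 61.8% against 34.6% for the whole list.

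No list was the widest throughout. Within a member, the DMSO peak was the widest of the 3 in 342 regions (24.4%, 22.2 to 26.8), the doxorubicin peak in 354 (25.3%, 23 to 27.6) and the Nutlin-3 peak in 272 (19.4%, 17.4 to 21.6). In 305 members (21.8%) the widths were equal in all 3 lists, and in 297 of these each peak was 40 bp wide. The 3 widths lay within 40 bp of each other in 745 members (53.2%) and spread over more than 200 bp in 106 (7.57%). Wide peaks seldom came together. At least 1 peak of 300 bp or more was found in 91 members, and in 63 of these (69.2%, 58.7 to 78.5) another list had a peak of only 40 bp. All 3 peaks exceeded 100 bp in 30 members and reached 200 bp in 3.

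Those 3 members, picked after their values were seen, were as follows. On chromosome 1 from 9163971 to 9164571 the DMSO peak was 280 bp wide, the doxorubicin peak 380 bp and the Nutlin-3 peak 520 bp, and a stretch of 260 bp was common to them, the longest of any member. On chromosome 6 from 36683691 to 36684231 the widths were 200, 220 and 380 bp in the same order, and the common stretch measured 40 bp. On chromosome 7 from 137766831 to 137767171 they were 200, 220 and 220 bp, with 100 bp in common. In each of these the DMSO peak was the narrowest and the Nutlin-3 peak at least as wide as the others.

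For each pair of lists, the midpoints lay within a grid step of 20 bp in most members. The shares were 54.6% for DMSO and doxorubicin, 59.1% for DMSO and Nutlin-3 and 55% for doxorubicin and Nutlin-3. The share for all lists together was not counted. The median distance between midpoints was 20 bp for DMSO and doxorubicin, for DMSO and Nutlin-3 and for doxorubicin and Nutlin-3, and 90% of the distances were at most 80 bp in each pair. Peaks of a member overlap or adjoin by the rule, and most were 40 bp wide, so short distances follow in part by construction. No pair was shifted to a side. The DMSO midpoint lay at the lower coordinate in 590 members and at the higher one in 602 when set against doxorubicin, and in 538 and 561 when set against Nutlin-3. Doxorubicin lay lower than Nutlin-3 in 594 members and higher in 593. DMSO and Nutlin-3 had the same start and end in 272 members (19.4%, 17.4 to 21.6), DMSO and doxorubicin in 163 (11.6%, 10.01 to 13.4) and doxorubicin and Nutlin-3 in 169 (12.1%, 10.4 to 13.9). DMSO and its partner Nutlin-3 thus coincided most often of these pairs. The shares come from the same members, and their intervals cover counting error only. The part that the preparation of the libraries has in this order was not tested.

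**Figure D2:**
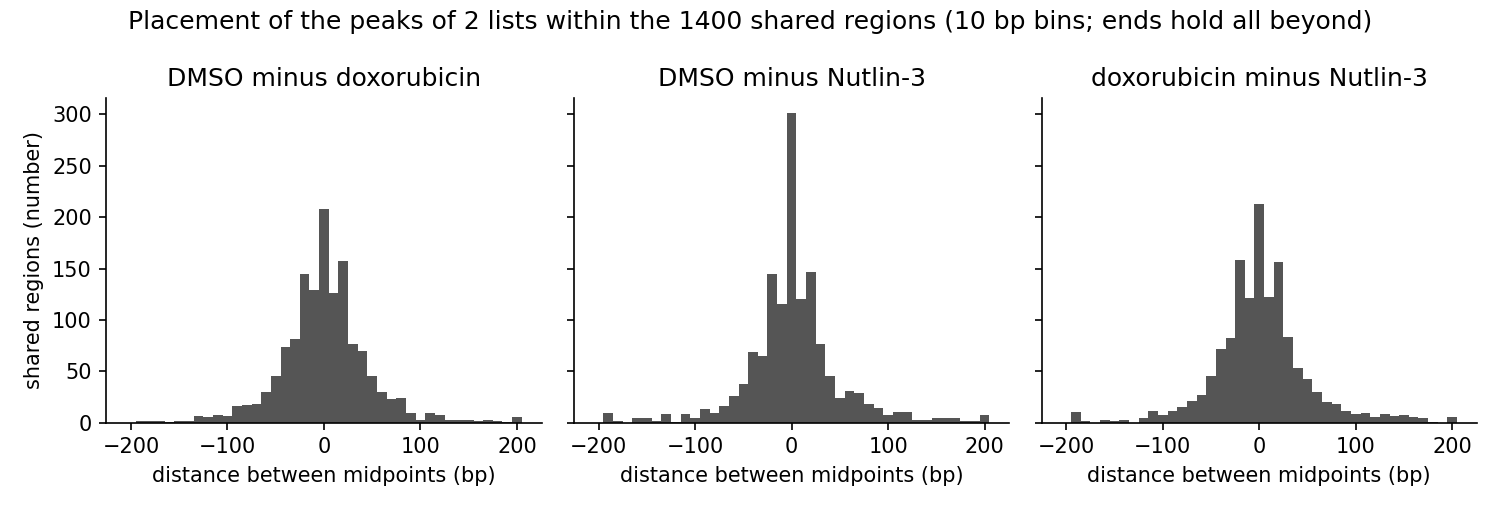
Distance between the midpoints of the widest peaks of 2 lists (x axis, bp, first list minus second) and number of shared regions (y axis) in bins of 10 bp. Values beyond the range were placed in the end bin on the right and in the bin next to the empty end bin on the left. Each distribution is centred on 0, and the central bin is highest for DMSO minus Nutlin-3, with 301 regions against 208 and 213.

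A stretch common to all 3 lists was present in 1056 members (75.4%, 73.1 to 77.7). The longest unbroken one measured 20 bp in 546 members and 40 bp in 441, and it exceeded 100 bp in 12. In 3 members there was more than 1 such stretch. Of the 196300 bp of the members, 17.5% lay in peaks of all 3 lists, 28.4% in peaks of 2 lists and 54.05% in a peak of 1 list. Identical bounds in all 3 lists occurred in 55 members, all of 40 bp. The first of these by position were on chromosome 1 from 101765111 to 101765151, from 171878391 to 171878431 and from 212679591 to 212679631. After the longest common stretch, given above, came, likewise picked after their values were seen, chromosome 8 from 55020471 to 55020951 with 160 bp. A stretch of 140 bp was reached on chromosome 17 from 57575811 to 57576371, on chromosome 14 from 56202891 to 56203051 and on chromosome 12 from 15981031 to 15981191. In the region on chromosome 12 DMSO and doxorubicin had the same bounds, 140 bp apart, and Nutlin-3 reached 20 bp further.

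The merged regions were wider than their peaks, with a median of 100 bp, and the widest were put together from peaks of unequal width or partial overlap. The widest, on chromosome 19 from 34850771 to 34851631 (860 bp), held a Nutlin-3 peak of 760 bp, a DMSO peak of 80 bp at its right end and doxorubicin peaks of 140 and 60 bp, and no base lay in all 3 lists. On chromosome 6 from 151219931 to 151220671 (740 bp) the DMSO peak of 620 bp, the widest DMSO peak of the members, covered a position at which doxorubicin and Nutlin-3 shared a peak of 40 bp, and a second Nutlin-3 peak of 280 bp overlapped its right end. On chromosome 1 from 231381971 to 231382671 (700 bp) the widths were 320 bp with DMSO, 120 bp with doxorubicin and 680 bp with Nutlin-3, and the whole doxorubicin peak lay in the others.

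In others a narrow peak of some lists lay inside a broad peak of another. On chromosome 15 from 91293871 to 91294511 DMSO and doxorubicin had the same 40 bp peak inside a Nutlin-3 peak of 640 bp. On chromosome X from 69247491 to 69248071 peaks of 40 bp with DMSO and 60 bp with doxorubicin lay inside a Nutlin-3 peak of 580 bp. The opposite order occurred as well: on chromosome 3 from 20094891 to 20095391 a DMSO peak of 500 bp covered a position at which doxorubicin and Nutlin-3 shared the same 40 bp peak. On chromosome 22 from 26445471 to 26445891 a doxorubicin peak of 420 bp covered 40 bp peaks of DMSO and Nutlin-3 that were offset by 20 bp. On chromosome 14 from 20289751 to 20290171 a doxorubicin peak of 420 bp covered a DMSO peak of 40 bp and Nutlin-3 peaks of 60 and 40 bp. Among the 10 widest members, 5 had no base in all 3 lists, and these were the regions on chromosomes 19, 15 (from 22655111), 6 (from 81302691), 1 (from 111708651) and 10 (from 79089171). In the region on chromosome 6 from 81302691 to 81303291, a DMSO peak of 160 bp ended where a doxorubicin peak of 40 bp and a Nutlin-3 peak of 440 bp began.

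**Figure D3:**
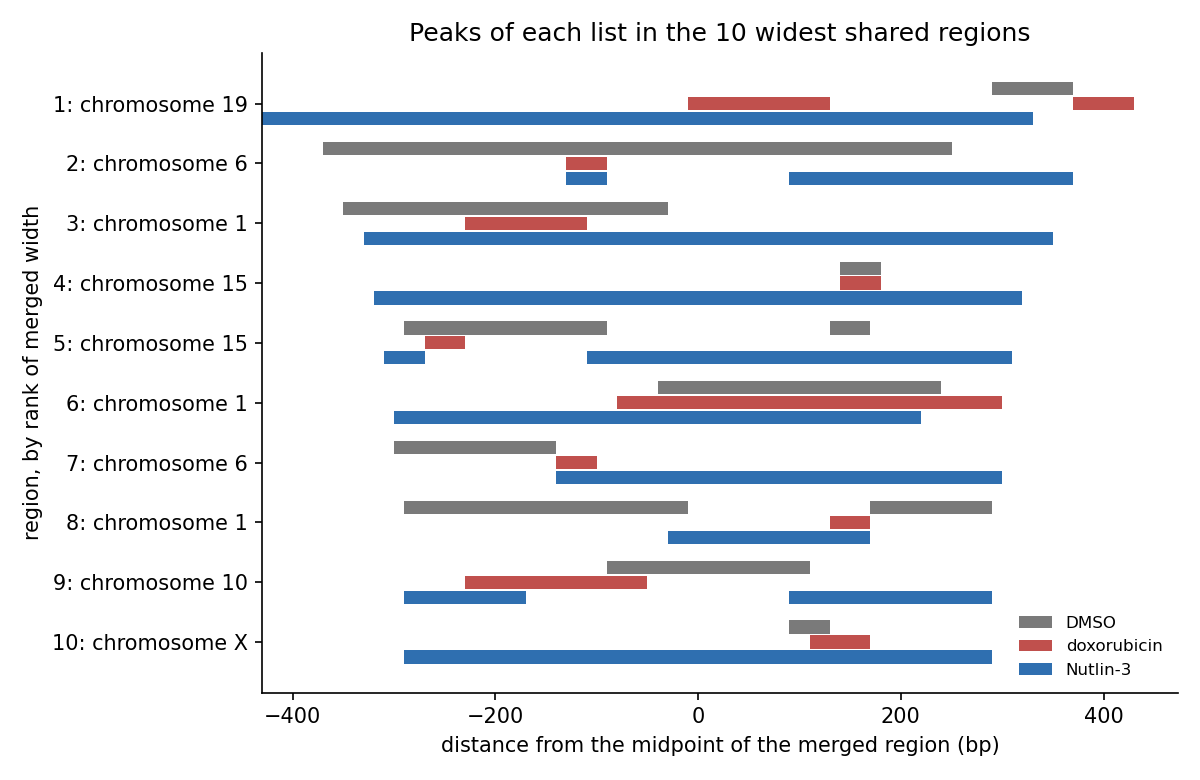
Position of each peak (x axis, distance from the midpoint of the merged region, bp) in the 10 widest shared regions (y axis, by rank of merged width), with 1 bar for each DMSO, doxorubicin or Nutlin-3 peak. Bars of the same region differ in length, as in the region of rank 1 with a Nutlin-3 bar of 760 bp and a DMSO bar of 80 bp that overlaps its right end.

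Shared regions often had a further Nutlin-3 peak at their side. Within 1000 bp of the bounds, outside the region itself, a Nutlin-3 peak was found for 660 of the 1400 members (47.1%, 44.5 to 49.8), against 24.4% of all merged regions. The corresponding shares were 36.1% (32.7 to 39.6) for the 775 regions with DMSO and Nutlin-3 alone, 21.2% (18.4 to 24.2) for the 794 with doxorubicin and Nutlin-3 alone and 21.2% (20.6 to 21.9) for the 15116 with Nutlin-3 alone. The share of members was above those of the 3 classes, with intervals that cover counting error only and no spread between libraries. A further DMSO peak was beside 12.4% (10.7 to 14.2) of members, against 8.44% of all merged regions. A further doxorubicin peak was beside 4.57% (3.54 to 5.80), against 9.08% of all merged regions. That set includes regions with an untreated peak and regions without a doxorubicin peak of their own, so it is an unlike background. In the other classes, a further DMSO peak was beside 16.3% (13.7 to 19.0) of regions with DMSO and Nutlin-3 alone, with an interval that overlapped that of the members, and 5.42% (3.95 to 7.23) of those with doxorubicin and Nutlin-3 alone. A further doxorubicin peak was beside 5.29% (3.84 to 7.08) of regions with doxorubicin and Nutlin-3 alone, again with overlapping intervals, and 16.8% (14.2 to 19.6) of those with DMSO and Nutlin-3 alone. These shares come from the lists that chose the members and were not tested, and the lists differ in length.

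Members with many Nutlin-3 neighbours were few. There was 1 such peak beside 435 members, 2 beside 171, 3 beside 44, 4 beside 9 and 5 beside 1, and none beside 740. The member with 5, on chromosome 12 from 123989531 to 123989771, had a DMSO peak of 40 bp, a doxorubicin peak of 240 bp and a Nutlin-3 peak of 60 bp. The Nutlin-3 peaks around it were 160, 60, 40, 320 and 160 bp wide, DMSO had neighbours of 300, 400 and 180 bp, and doxorubicin had 1 of 40 bp. Among the members with 4 was one on chromosome 1 from 23791831 to 23791891. It had a 40 bp peak in each list, Nutlin-3 neighbours of 40, 60, 180 and 60 bp, and doxorubicin neighbours of 60 and 40 bp. These members were picked after their values were seen.

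Most of the neighbours lay 100 to 500 bp away, on either side. Of the 950 combinations of a member and a Nutlin-3 neighbour, 732 (77.1%) had a gap of 100 to 500 bp, and the median gap was 280 bp. Measured from midpoint to midpoint, 455 of 915 neighbours lay 200 to 400 bp away, 8 lay 100 to 200 bp away and 0 within 100 bp. No Nutlin-3 neighbour lay within 100 bp of the midpoint in the other classes either. With DMSO and Nutlin-3 alone 157 of 357 lay 200 to 400 bp away, and with doxorubicin and Nutlin-3 alone 93 of 200. With Nutlin-3 alone it was 1743 of 3870, so such spacing was not particular to the members. Close neighbours of the same list were rare or absent throughout the files: the smallest gap was 60 bp between Nutlin-3 peaks, 120 bp between DMSO peaks and 180 bp between doxorubicin peaks. To the left of members there were 439 Nutlin-3 neighbours and to the right 511. Both sides were occupied for 170 members (12.1%, 10.5 to 14.0), against 5.16% of regions with DMSO and Nutlin-3 alone, 2.14% with doxorubicin and Nutlin-3 alone and 1.90% with Nutlin-3 alone. In these 170 the median gap to the nearest neighbour was 280 bp on the left and 280 bp on the right, and 121 of them (71.2%) had a Nutlin-3 peak of 40 bp in the member itself.

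**Figure D4:**
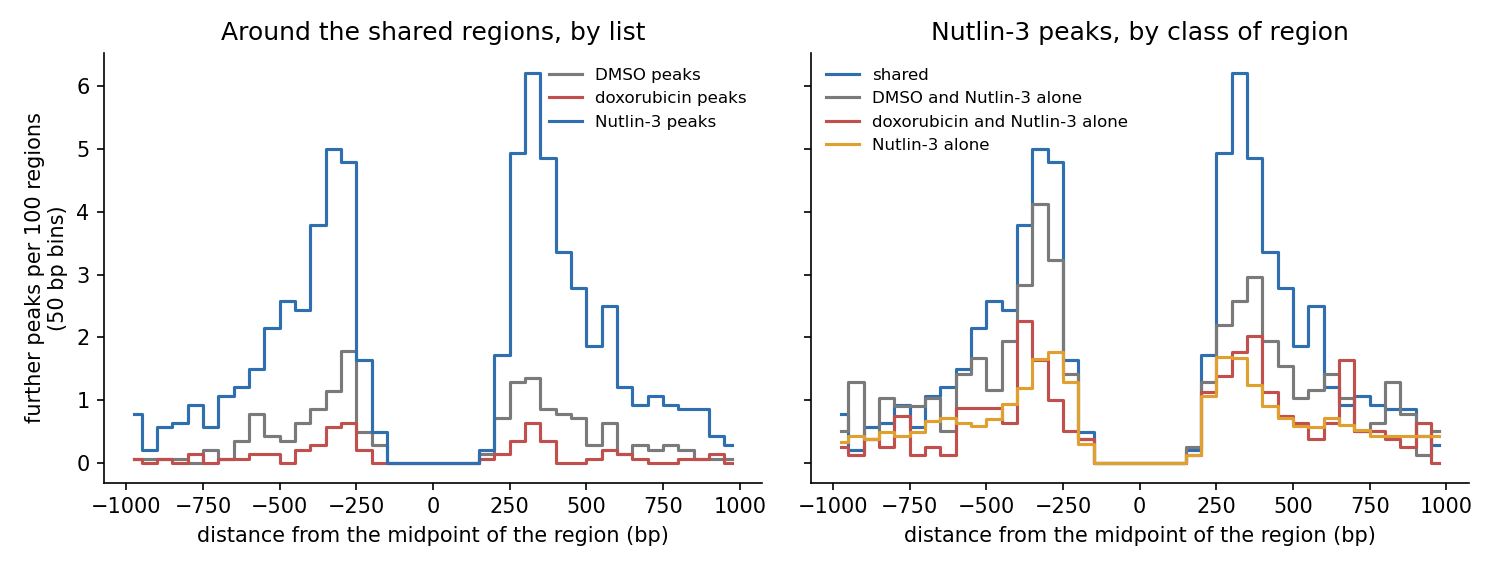
Further peaks per 100 regions (y axis, bins of 50 bp) by distance from the midpoint of the region (x axis, bp), on the left around the shared regions for each list and on the right for Nutlin-3 peaks around 4 classes of region. The Nutlin-3 line rises on both sides of an empty centre, most at 300 to 350 bp to the right of the shared regions with 6.21 peaks per 100 regions.

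Most flanking peaks lay in regions of Nutlin-3 alone, at a share near that of the whole Nutlin-3 list. Counted once each, 928 Nutlin-3 peaks flanked a member, and 779 of them (83.9%) lay in regions of Nutlin-3 alone, against 83.2% of the list. A further 98 (10.6%) lay in regions with DMSO and Nutlin-3 alone, against 4.32% of the list, 36 (3.88%) in other members, against 7.81%, and 13 (1.40%) in regions with doxorubicin and Nutlin-3 alone, against 4.39%. Their median width was 60 bp, and 36.4% were 40 bp wide, against 61.8% of the Nutlin-3 peaks inside members. Members with the narrowest Nutlin-3 peaks had neighbours more often than those with the widest: 51.2% (47.8 to 54.5) of the 862 whose widest Nutlin-3 peak measured 40 bp, against 27.5% (15.9 to 41.7) of the 51 in which it reached 300 bp. Between these the order was not steady, with 43.6% at 60 bp, 48.9% at 80 to 100 bp, 39.5% at 120 to 200 bp and 30.3% at 220 to 280 bp. By the width of the DMSO peak a lower share at the widest was not seen, with 50.3% (46.6 to 53.9) of 752 members at 40 bp and 63.3% (43.9 to 80.1) of 30 at 300 bp or more. Nor was it seen by the width of the doxorubicin peak, with 48.8% (45.1 to 52.5) of 723 and 66.7% (38.4 to 88.2) of 15. Summed over 1000 bp to either side of the midpoint, the median length in Nutlin-3 peaks was 100 bp for members, 100 bp with DMSO and Nutlin-3 alone, 80 bp with doxorubicin and Nutlin-3 alone and 80 bp with Nutlin-3 alone. Around members the medians for DMSO and doxorubicin peaks were 60 bp each.

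Shared regions were scattered over the genome, and only a few stood in groups. The median distance from a member to the next one was 566 kb, and 1288 members (92%) had no other within 20 kb. A further member lay within 20 kb of 112 (8%, 6.63 to 9.55). The shares were 8.56% among the regions with doxorubicin and Nutlin-3 alone and 10.5% among those with DMSO and Nutlin-3 alone, with overlapping intervals. Those sets hold fewer regions, 794 and 775, with median distances of 804 and 1020 kb, so like shares do not mean like grouping. Of all merged regions, 56.2% had another merged region of any class within 20 kb; that set is larger, so its spacing is closer by construction. The 112 members formed 49 pairs and 4 longer runs.

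The longest run was on chromosome 6 from 36742991 to 36758451, with 5 members in 15.5 kb. In it the member from 36752211 to 36752251 was 40 bp wide in all 3 lists. The member from 36752731 to 36752891 had widths of 80, 40 and 160 bp with DMSO, doxorubicin and Nutlin-3, and that from 36753051 to 36753131 had 40 bp in each. The outer members, from 36742991 to 36743051 and from 36758371 to 36758451, had 40, 60 and 40 bp each, in the same order. The 5 doxorubicin peaks of this run all lay in members, while 4 of its 9 DMSO peaks and 6 of its 11 Nutlin-3 peaks lay outside them.

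The other runs had 3 members each. On chromosome 4 from 78472991 to 78484431 the first member had a DMSO peak of 220 bp, doxorubicin peaks of 40 and 40 bp and a Nutlin-3 peak of 320 bp, and the others had 40 bp in each list. On chromosome 8 from 67188231 to 67199251 the widths with DMSO, doxorubicin and Nutlin-3 were 40, 200 and 40 bp in the first member, 500, 40 and 160 bp in the second and 40 bp each in the last. On chromosome 19 from 18336791 to 18358131 they were 40 bp each, then 40, 100 and 40 bp, then 280, 160 and 40 bp. In none of the 4 runs was there an untreated peak. Over smaller distances, 33 members stood in 16 groups with gaps of 160 to 500 bp.

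On most chromosomes the share of regions that met the rule was near the overall value. It ran from 5.23% (4.05 to 6.63) on chromosome 8, with 64 members of 1224 regions, to 10.5% (7.70 to 13.8) on chromosome 19, with 44 of 421. Chromosome X followed with 10.3% (7.09 to 14.4), or 30 of 290. In 20 of the 23 chromosomes with members the interval held the overall 7.04%, and the exceptions were chromosome 8 below it and chromosomes 19 and X above it. Chromosome 1 had the most members, 126 of 1783 regions. Chromosome Y had 0 members in 107 regions, and chromosome M had 0 in 11. The doxorubicin list had 104 peaks on chromosome Y and the DMSO list 0, so no region there could meet the rule. The DNA copy number of each chromosome in these cells was not analysed here.

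**Figure D5:**
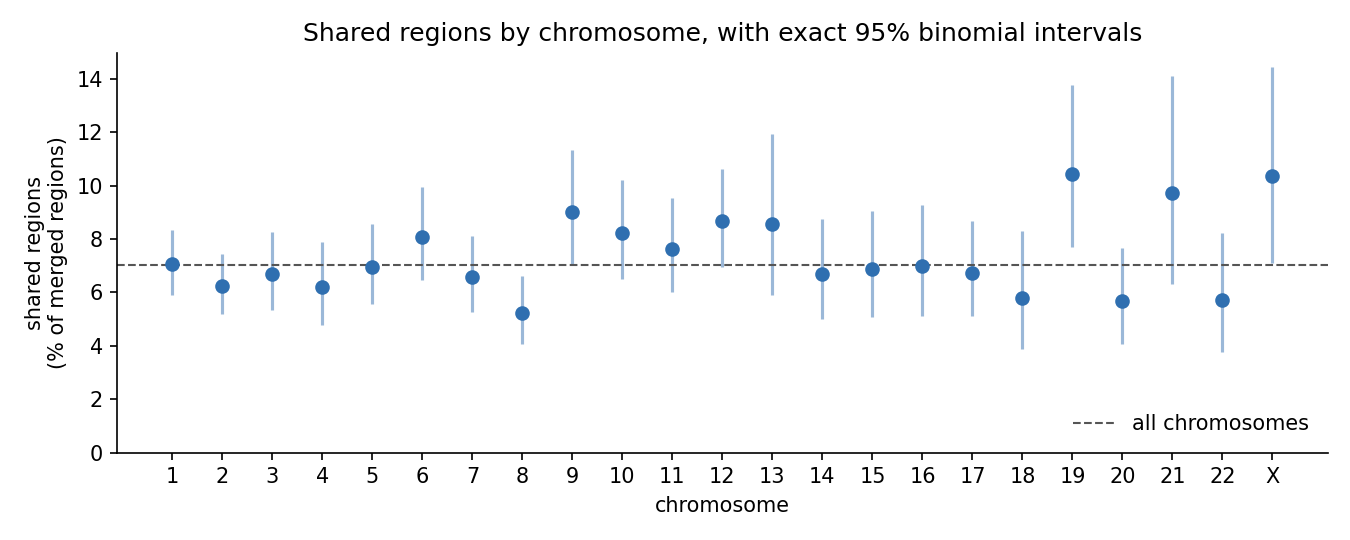
Shared regions as a percentage of the merged regions of each chromosome (y axis) for chromosomes 1 to 22 and X (x axis), as points with exact 95% binomial intervals, and the value of all chromosomes as a dashed line. Most intervals cross the line at 7.04%, with chromosome 8 below it at 5.23% and chromosome 19 above it at 10.5%.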

How the data were processed

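The authors deposited 1 list of p53 peaks per ChIP library, 4 in all, with chromosome, start and end and no height, score or count. Per the submitters' processing notes, CASAVA, Bowtie 0.12.2 and build hg18 belong to the processing, with no role named. How peaks were called, with which threshold and with what use of the inputs, was not stated. The inputs had no list used here. All 24535 widths were multiples of 20 bp, and positions are as deposited, with an uncertainty of 1 bp, since the counting convention is not stated. Depth is unknown.

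Peaks were merged at a distance of 0 bp in Python 3.11.15 (numpy 2.4.6, pandas 2.3.3, scipy 1.17.1), which gave as many regions as bedtools 2.31.1 (19877). The code was tested on simulated lists, and all 5 quantities compared came out equal. The last of them set the region count against bedtools and was not planted. Simulated peaks of a site all overlapped at a common position, so joins in steps or by adjoining ends were not simulated. Where a list had 2 peaks in a region, the widest was used for widths and midpoints. Neighbours were peaks outside the region with a gap of at most 1000 bp, and runs were at least 3 members with gaps of at most 20 kb. Intervals are exact (Clopper-Pearson, 95%). With 1 library per condition no test was made.

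Members, definitions and alternatives were chosen with earlier results of these data known. The text names the 10 widest members, those with the widest peak of each list, the most peaks, identical bounds or the nearest untreated peak, and the longest runs; others are marked as picked after their values were seen. The planned sequence and annotation steps were not run, for want of that build here.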

Additional observations from a re-analysis of the deposited data

How the results depend on the processing

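Of 26 alternative values, 18 stayed within 1.5 times the count or within the interval of the main value, and 8 moved. The count of 1400 members moved under 3 of its 9 alternatives: to 432 with a reciprocal overlap of at least 50% between each pair of lists, to 157 without peaks of 40 bp and to 120 in the widest 50% of each list. Each of these takes peaks or overlaps away by construction. It was 1283 when adjoining peaks were kept apart, 1446 when peaks up to 500 bp apart were merged and 1056 with at least 1 bp common to all 3 lists. The share of members with another within 20 kb (8%) became 3.93% within 5 kb and 17.1% within 100 kb, and the share with a Nutlin-3 peak beside them (47.1%) became 43.1% within 500 bp and 54.6% within 5000 bp, as the window was narrowed or widened. With ties counted as Nutlin-3, that list had the widest peak in 46.5% of members. Leaving out a replicate was not possible with 1 library per condition. The median widths of 40 bp and median midpoint distances of 20 bp were the same under the alternatives run for them. A position is known only to the 20 bp grid, which limits every width and distance.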
